A study of Homo sapiens with 6 samples.

Results

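CKM, MB, CRYAB, CKB, ATP2A2, GJA1 and RBM20 are 7 genes, of 16834 in the table, that are known for energy supply, calcium handling, electrical coupling, stress protection and splicing in heart muscle and that are not part of the sarcomere. They were chosen by name with the results of these libraries known. CKM, MB and CRYAB were taken because they were high in the Flag-IPs, and CKB, ATP2A2, GJA1 and RBM20 because the cell line itself expresses them. Their levels and differences between the IPs are therefore given as a description, with no test.

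The 6 RNA-seq libraries are 3 Flag-IPs and 3 HA-IPs from unsynchronized HEK293-T Flp-In cells, a line of human embryonic kidney cells with a recombination site that takes up a single copy of a construct. All 6 libraries came from cells that stably express ccTaggedRP from a CAG promoter. In this construct 1 bicistronic mRNA encodes 2 tagged ribosomal proteins, Flag-RPL10a-hCdt and HA-RPL10a-hGem, whose degrons are designed to remove them in different phases of the cell cycle. The groups differ in the antibody, against Flag or against HA, used on the lysates. No IP without an antibody and no RNA from before the IP was analysed here. The labels do not say that the replicates came from separate cultures, so p-values measure only the spread between these samples, which may be technical. The libraries held 23174532 to 44134833 reads on the listed genes. The 9 HEK293 markers were all listed, with sums of 64911 to 71628 normalized counts in the Flag-IPs and 68877 to 70758 in the HA-IPs, and 1 of them was called higher in each group. Of all genes, 7.10% were called higher in the Flag-IPs and 5.79% higher in the HA-IPs. HA-IP replicate 3 stood apart from the other HA-IPs in the genes of heart muscle. The summed level of the 18 listed sarcomere genes reached 12.5% of its Flag-IP mean in HA-IP replicate 3, against 1.84% and 0.968% in HA-IP replicates 1 and 2. This sum is weighted to the highest genes. The median gene was at 22.4%, against 2.74% and 1.45%.

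In heart muscle, creatine kinases pass phosphate between ATP and creatine, so that energy made in mitochondria reaches the myofibrils. Myoglobin stores oxygen in the same cells, and αB-crystallin keeps desmin and titin folded under stress. SERCA2, the product of ATP2A2, returns calcium to the sarcoplasmic reticulum after each beat, connexin 43 from GJA1 couples neighbouring cells electrically, and RBM20 controls the splicing of titin. Kidney and other non-muscle cells use the brain creatine kinase CKB, a housekeeping form of SERCA2 and connexin 43 as well.

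CKM and CKB are the pair of the 7 genes that encode 2 forms of the same enzyme, one of muscle and one found in many tissues, and their upstream sequences are shown because CKM was 16.6 times higher in the mean of the Flag-IPs while the groups overlapped for CKB. CKM lies at chr19:45306413-45322875 on the minus strand and CKB at chr14:103519667-103522833 on the minus strand of GRCh38. The 250 bases before each canonical start, from the RefSeq table of GRCh38.p14 at chr19:45322876-45323125 and chr14:103522831-103523080, both on the minus strand, read 5′ to 3′ as follows, with matches to the motifs searched in capitals.

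CKM: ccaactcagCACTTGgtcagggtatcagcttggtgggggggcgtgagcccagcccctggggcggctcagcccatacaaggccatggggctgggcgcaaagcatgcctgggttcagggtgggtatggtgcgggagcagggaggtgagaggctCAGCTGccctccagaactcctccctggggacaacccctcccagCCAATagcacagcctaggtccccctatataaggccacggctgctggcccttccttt

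CKB: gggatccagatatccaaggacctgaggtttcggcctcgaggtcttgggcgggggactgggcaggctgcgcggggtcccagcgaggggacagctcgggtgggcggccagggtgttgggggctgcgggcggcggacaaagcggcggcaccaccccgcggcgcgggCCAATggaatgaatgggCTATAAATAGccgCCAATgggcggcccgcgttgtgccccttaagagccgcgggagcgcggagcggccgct

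Both strands were searched for the E-box of muscle regulators (CANNTG), the core promoter elements with the letters TATAAA and with the letters CCAAT, the heat shock element unit (GAANNTTC), and the MEF2 and CArG motifs of muscle genes. The CKM window held 2 E-boxes and 1 CCAAT, and the CKB window held 2 CCAAT and 1 MEF2 match, which overlaps its only TATAAA. Among 35116 RefSeq windows of the same length, 61.8% held an E-box, 32.0% a CCAAT, 10.7% a TATAAA, 5.8% a heat shock unit, 2.8% a MEF2 match and 1.2% a CArG match. GC content was 64.4% for CKM and 70.8% for CKB, beside a median of 58.0%, and the windows held 5 and 27 CG dinucleotides, beside a median of 11. These matches describe the letters only. Only the exact letters TATAAA were searched, so the TATATAAG near the end of the CKM window was not counted. The upstream sequences of the other 5 genes are not shown. The CKM and CKB transcripts, of 1556 and 1420 bases, were identical at 977 of 1263 aligned positions (77.4%), and the longest run they shared was 29 bases, shorter than the reads of 150 bases.

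Levels are given first as normalized counts, which are reads divided by a size factor per library and serve to compare 1 gene between libraries. Differences are HA-IP minus Flag-IP on the scale of log2(normalized counts + 1), with their standard error (SE) from limma, so a negative value is higher in the Flag-IPs. CRYAB, CKM and MB were between 8.74 and 23.1 times higher in the mean of the Flag-IPs, while the means of CKB, ATP2A2, GJA1 and RBM20 lay within 1.05 to 1.12 times of each other. The Flag-IPs and HA-IPs did not overlap in 6 of the 7 genes, 3 in each direction. Of all genes listed, 32.2% had groups that lay apart, with 16.1% higher in the Flag-IPs and 16.1% higher in the HA-IPs. Since the members were chosen on these values, nothing is read from that count. In RNA recovered in bulk, fewer cells of a type and less RNA per cell cannot be told apart.

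**Figure D1:**
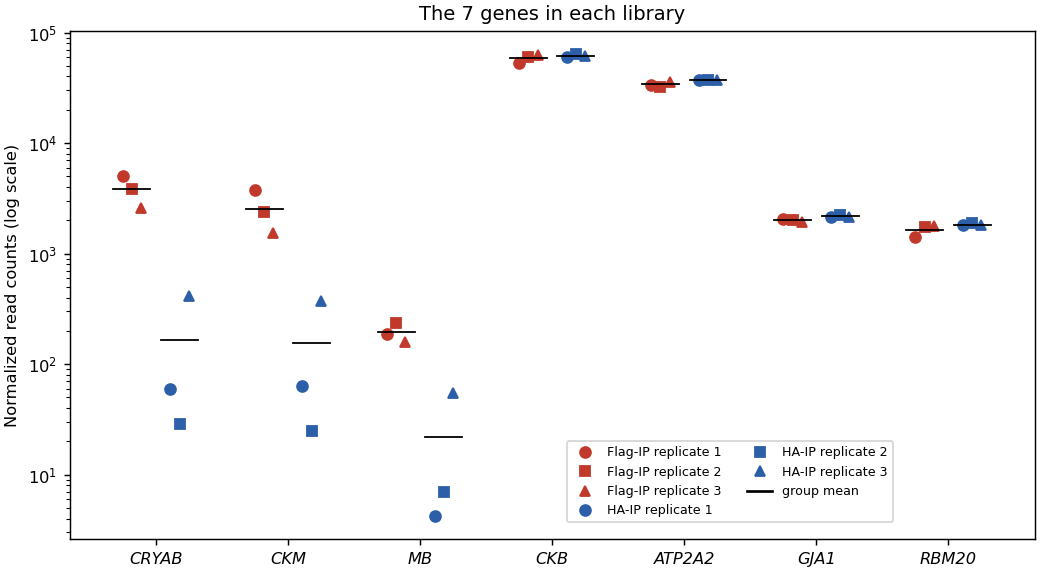
Normalized read counts of the 7 genes (y axis, log scale) in each library, with Flag-IPs in red, HA-IPs in blue, replicates by symbol and the group mean as a line. CRYAB, CKM and MB lie far lower in the HA-IPs, with HA-IP replicate 3 above the other HA-IPs, while CKB, ATP2A2, GJA1 and RBM20 stay within 1.32 times over all 6 libraries.

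CKM encodes the muscle form of cytosolic creatine kinase, which sits at the sarcomere and rebuilds ATP where it is used. Flag-IP replicates 1, 2 and 3 gave 3721, 2396 and 1547 normalized counts of CKM, and HA-IP replicates 1, 2 and 3 gave 63.5, 24.8 and 374. Values of the other genes follow the same order of replicates. The Flag-IPs were all above the HA-IPs, replicate 1 was the highest Flag-IP, and HA-IP replicate 3 held most of the CKM counts of the HA-IPs. The group means were 2554 ± 1096 (SD, n = 3) and 154 ± 191 (SD, n = 3), a difference of -4.81 (SE 0.71) on the log2 scale, and of -5.88 without HA-IP replicate 3.

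CKB, the brain form of the enzyme, was the highest of the 7 genes per length in every library. The Flag-IPs gave 52597, 60475 and 62435 normalized counts and the HA-IPs 60091, 63468 and 60890, with means of 58502 ± 5207 and 61483 ± 1765 (SD, n = 3). The groups overlapped, and only Flag-IP replicate 1 lay below the HA-IPs. The difference was 0.08 (SE 0.066), which was -0.01 under quantile normalization and 0.00046 without Flag-IP replicate 1, so no direction is given.

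The share of each form in the reads of the 5 creatine kinase genes shows the same contrast within a library, where no size factor enters. CKM made up 6.49%, 3.77% and 2.40% of these reads across the Flag-IPs, and 0.105% (exact 95% interval 0.0843% to 0.129%), 0.0387% (0.0250% to 0.0571%) and 0.604% (0.542% to 0.672%) across the HA-IPs. These intervals cover counting error only, since reads without molecular identifiers are not independent molecules. CKB held 94.5 ± 2.47% of the creatine kinase reads in the Flag-IPs and 98.9 ± 0.428% in the HA-IPs (SD, n = 3). The summed level of the family was 61830 ± 3965 in the Flag-IPs and 62143 ± 1727 in the HA-IPs, means that lay within 1 SD of each other.

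CKMT2, the sarcomeric creatine kinase of mitochondria, made up 0.643 ± 0.350% of the family in the Flag-IPs and 0.0931 ± 0.0522% in the HA-IPs. The Flag-IPs gave 577, 390 and 199 normalized counts of it and the HA-IPs 38.8, 39.6 and 94.8. Its level was higher in the Flag-IPs, with a log2 difference of -2.73 (SE 0.38, adjusted p = 0.0015 in limma). The ubiquitous mitochondrial forms CKMT1A and CKMT1B, near-identical copies whose reads the counting could split, differed by 0.04 (SE 0.17) and 0.31 (SE 0.11) and did not pass the test (adjusted p = 0.92 and 0.1 in limma).

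MB encodes myoglobin, the oxygen store of heart and slow muscle. Its level was 186, 236 and 158 normalized counts across the Flag-IPs but 4.23, 6.93 and 55.1 across the HA-IPs. The groups did not overlap, and HA-IP replicate 3 was again the highest HA-IP. Means were 193 ± 39.7 and 22.1 ± 28.6 (SD, n = 3), a difference of -3.85 (SE 0.66). MB had the fewest reads of the 3 muscle genes, with 143, 222 and 171 reads per Flag-IP and 6, 7 and 50 reads per HA-IP, so its difference depends more on the constant added before the log, with -4.0 at a pseudocount of 0.1 and -3.0 at 10, and was -4.89 without HA-IP replicate 3. The gene lies at chr22:35606764-35637951 on the minus strand of GRCh38 and overlaps a noncoding RNA gene on the same strand over 8147 bases.

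CYGB, a relative of myoglobin found in many cell types, was also higher in the Flag-IPs, with 74.5 ± 19.6 against 23.7 ± 2.21 normalized counts (log2 difference -1.58, SE 0.26, adjusted p = 0.0032 in limma).

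CRYAB encodes αB-crystallin, a small heat shock protein that is abundant in heart and lens. It showed the largest difference of the 7 genes, with 5050, 3862 and 2609 normalized counts across the Flag-IPs and only 59.3, 28.7 and 410 across the HA-IPs. Both the order of the Flag-IPs, with replicate 1 highest and replicate 3 lowest, and the rank of HA-IP replicate 3 above the other HA-IPs were those of CKM. Means were 3841 ± 1221 and 166 ± 212 (SD, n = 3), a difference of -5.36 (SE 0.69), or -6.45 without HA-IP replicate 3. CRYAB lies at chr11:111908564-111923722 on the minus strand of GRCh38, and HSPB2 and C11orf52, neither of them listed, overlap the gene on the opposite strand. The strand setting is not known, and whether reads of these genes were counted for CRYAB was not tested.

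Within the 4 small heat shock genes analysed, CRYAB took 84.9%, 67.4% and 57.5% of the reads across the Flag-IPs and 10.2%, 4.72% and 32.3% across the HA-IPs. HSPB1, the small heat shock protein of most cell types, took 9.83 ± 2.64% in the Flag-IPs and 69.6 ± 16.1% in the HA-IPs, although its own level was 518 ± 59.3 and 531 ± 116 normalized counts (log2 difference 0.02, SE 0.14, adjusted p = 0.95 in limma). Its larger share thus went with a family total of 5404 ± 761 in the Flag-IPs and 819 ± 390 in the HA-IPs. HSPB6, a small heat shock protein of muscle, was higher in the Flag-IPs (log2 difference -3.94, SE 0.58, adjusted p = 0.0019 in limma). Unlike CRYAB it was lowest in replicate 1 among the Flag-IPs, with 321, 1263 and 1250 normalized counts, beside 35.3, 27.7 and 135 across the HA-IPs. HSPB8, the partner of BAG3 in the removal of misfolded proteins, was higher in the Flag-IPs by a smaller amount (-0.83, SE 0.19, adjusted p = 0.016 in limma), a call that was lost without Flag-IP replicate 2, HA-IP replicate 1 or HA-IP replicate 2.

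**Figure D2:**
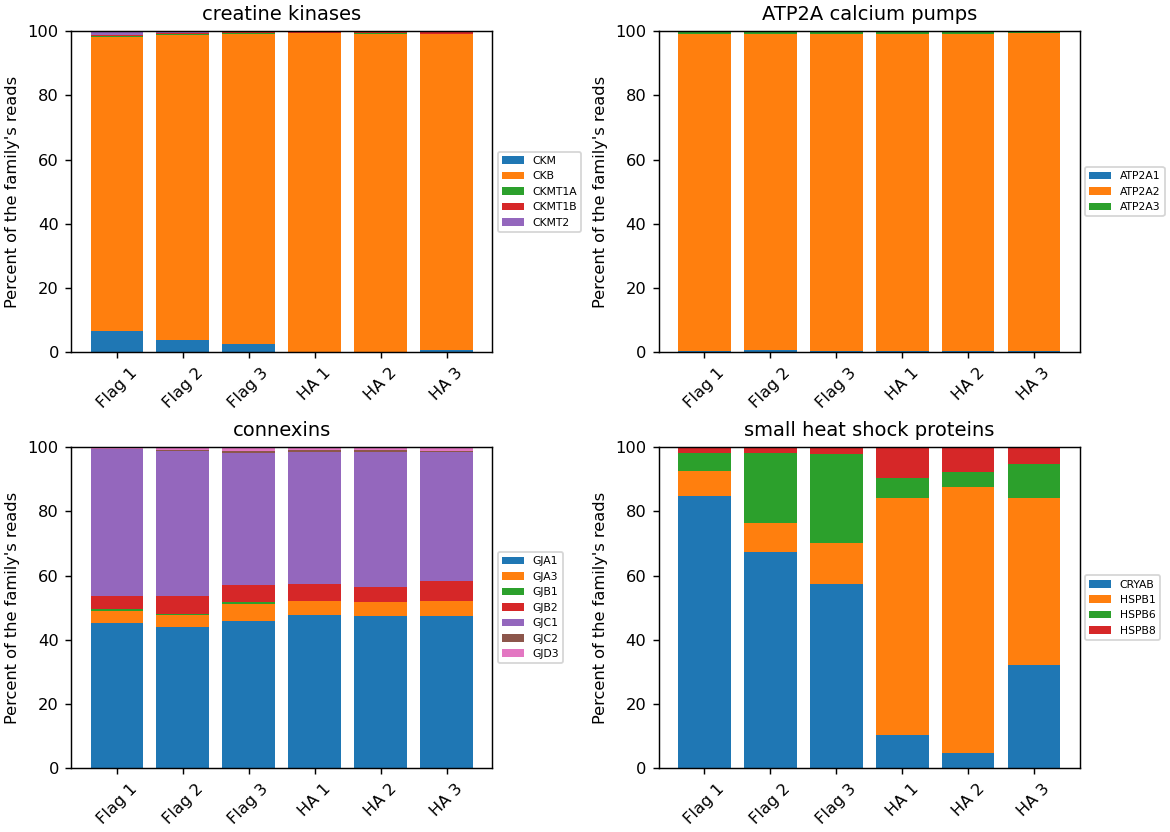
Percent of the reads of each family (y axis) held by each gene in the 6 libraries, where Flag 1 to 3 and HA 1 to 3 are the replicates of the Flag-IPs and HA-IPs, for creatine kinases, ATP2A calcium pumps, connexins and small heat shock proteins. CKB held 91.8% to 96.7% of the creatine kinase reads in the Flag-IPs and 98.4% to 99.2% in the HA-IPs. ATP2A2 held 98.7% to 99.0% and GJA1 43.9% to 47.8% of their families over all libraries. CRYAB held 57.5% or more of the small heat shock reads in the Flag-IPs and 32.3% or less in the HA-IPs.

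ATP2A2, at chr12:110280756-110351093 on the plus strand, encodes SERCA2, the pump that refills the calcium store of the endoplasmic or sarcoplasmic reticulum. The Flag-IPs held 33600, 32415 and 35688 normalized counts, and the HA-IPs held 37496, 36930 and 36883. The HA-IPs were all above the Flag-IPs by a small margin, and they varied less, with a coefficient of variation of 0.920% against 4.89%. Means were 33901 ± 1657 and 37103 ± 341 (SD, n = 3), a difference of 0.13 (SE 0.050) that turned to -0.01 under quantile normalization. Of the reads of the ATP2A family, ATP2A2 held 98.8 ± 0.118% in the Flag-IPs and 98.9 ± 0.0870% in the HA-IPs (SD, n = 3). The pump of fast skeletal muscle, ATP2A1, and ATP2A3 held the rest, and neither passed the test (log2 differences 0.03 and 0.04, adjusted p = 0.93 and 0.84 in limma).

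GJA1, at chr6:121435595-121449727 on the plus strand, encodes connexin 43, the main gap junction protein of working heart muscle and also of many epithelial and mesenchymal cells. GJA1 measured 2051, 2007 and 1935 normalized counts across the Flag-IPs against 2146, 2249 and 2158 across the HA-IPs. The highest Flag-IP lay just below the lowest HA-IP. Means of 1997 ± 58.3 and 2184 ± 56.5 (SD, n = 3) gave a difference of 0.13 (SE 0.052), which was 0.08 when every library was scaled to the same total. Per length, GJA1 made up 61.0 ± 1.23% of the 7 listed connexins in the Flag-IPs and 63.1 ± 0.733% in the HA-IPs, and GJC1, the connexin 45 of the conduction system and of vessels, followed with 23.9 ± 1.70% and 21.9 ± 0.842%. GJC1 did not pass the test between the IPs (log2 difference -0.05, SE 0.074, adjusted p = 0.74 in limma).

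RBM20, at chr10:110644336-110839468 on the plus strand, encodes the splicing factor that sets which titin exons are kept in heart muscle. RBM20 measured 1414, 1727 and 1764 normalized counts across the Flag-IPs against 1800, 1873 and 1802 across the HA-IPs. All HA-IPs lay above all Flag-IPs, but Flag-IP replicates 2 and 3 were close to them and replicate 1 was lower. The means were 1635 ± 192 and 1825 ± 41.5 (SD, n = 3), a difference of 0.17 (SE 0.079), which fell to 0.06 without Flag-IP replicate 1. Its best known target TTN, which encodes titin, lay on the other side, with 1529, 500 and 307 normalized counts across the Flag-IPs against 21.9, 10.9 and 193 across the HA-IPs. TTN was higher in the Flag-IPs in limma (log2 difference -4.04, SE 0.83, adjusted p = 0.011), but not in DESeq2 (adjusted p = 0.055), and in limma not without HA-IP replicate 1 or HA-IP replicate 2. RBM24, another splicing factor of heart and skeletal muscle, was higher in the Flag-IPs, with 400 ± 195 against 81.8 ± 31.2 normalized counts (log2 difference -2.23, SE 0.33, adjusted p = 0.0019 in limma).

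To compare the genes with each other, reads were divided by the length of the canonical transcript and scaled to the same total per library (TPM over the listed genes). In the Flag-IPs the order was CKB (4153 ± 428 TPM), CRYAB (499 ± 152), ATP2A2 (412 ± 20.3), CKM (165 ± 68.2), GJA1 (65.2 ± 1.59), RBM20 (22.6 ± 2.98) and MB (18.2 ± 3.93), each the mean ± SD of 3 libraries. CRYAB and ATP2A2 overlapped in that order, since CRYAB had 341 TPM in Flag-IP replicate 3 and 645 in replicate 1 while ATP2A2 had 399 to 435 across these libraries. RBM20 and MB overlapped too, with 19.2 to 24.4 TPM and 14.9 to 22.5. In the HA-IPs the order was CKB (4417 ± 130 TPM), ATP2A2 (456 ± 13.0), GJA1 (72.3 ± 2.12), RBM20 (25.5 ± 0.726), CRYAB (21.6 ± 27.3), CKM (9.97 ± 12.3) and MB (2.08 ± 2.67). CKB, ATP2A2 and GJA1 stayed apart from their neighbours there, and RBM20 (24.7 to 26.2 TPM) overlapped CRYAB (3.78 to 53.1 TPM) but lay just above CKM (1.62 to 24.1 TPM). CRYAB, CKM and MB (0.412 to 5.16 TPM) overlapped each other, although within each HA-IP CRYAB was the highest of them and MB the lowest. Per length, CRYAB was thus close to ATP2A2 in the Flag-IPs and below RBM20 in HA-IP replicates 1 and 2.

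The spread within a group set the genes apart as well. Among the HA-IPs the coefficient of variation was 124% for CKM, 130% for MB and 128% for CRYAB, and between 0.920% and 2.87% for CKB, ATP2A2, GJA1 and RBM20. Among the Flag-IPs it was 42.9%, 20.6% and 31.8% for CKM, MB and CRYAB, beside 2.92% to 11.7% for the other genes. From the lowest to the highest of the 6 libraries CRYAB spanned 176 times, CKM 150 times and MB 55.8 times, and CKB, RBM20, ATP2A2 and GJA1 spanned 1.16 to 1.32 times.

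Each library was then expressed as a percent of the Flag-IP mean of the gene and set beside the heart sarcomere genes. CRYAB stood at 132%, 101% and 67.9% in the Flag-IPs and at 1.54%, 0.748% and 10.7% in the HA-IPs. The β-myosin heavy chain gene MYH7 stood at 131%, 102% and 66.9% and at 1.61%, 0.746% and 10.6%, so the pair matched within 2 percentage points in every library. CKM was at 146%, 93.8% and 60.6% in the Flag-IPs and at 2.49%, 0.969% and 14.6% in the HA-IPs, inside the range of the 18 sarcomere genes in every library. MB stood at 96.1%, 122% and 81.7% across the Flag-IPs, then at 2.19%, 3.59% and 28.5% across the HA-IPs. It lay below every sarcomere gene in Flag-IP replicate 1, where the lowest of them was at 107%, and above every one in replicate 2, where the highest was at 115%. The median of the sarcomere genes was 133%, 101% and 67.4% across the Flag-IPs, then 2.74%, 1.45% and 22.4% across the HA-IPs. By contrast CKB, ATP2A2, GJA1 and RBM20 stayed between 86.5% and 115% in all libraries.

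**Figure D3:**
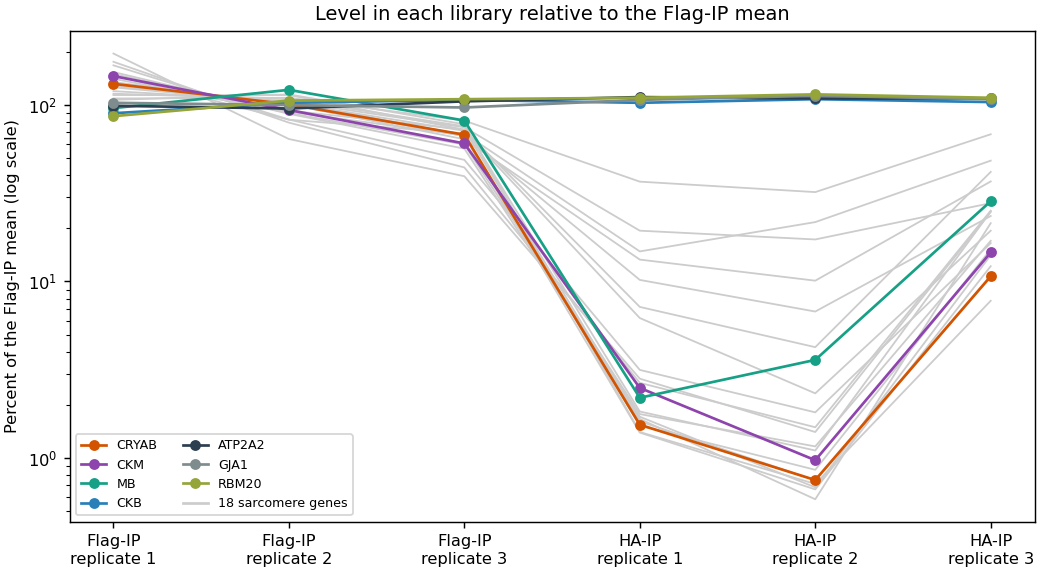
Level in each library (x axis) as a percent of the gene's Flag-IP mean (y axis, log scale) for the 7 genes in colour and the 18 listed sarcomere genes in grey, with lines joining the values of a gene. CRYAB and CKM run within the grey lines to 0.748% and 0.969% in HA-IP replicate 2 and return to 10.7% and 14.6% in replicate 3, while CKB, ATP2A2, GJA1 and RBM20 stay between 86.5% and 115%.

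A ratio of reads within a library needs no scaling, so the muscle genes were counted per 100 reads of MYH7. CRYAB gave 6.02, 5.90 and 6.08 reads per 100 MYH7 reads across the Flag-IPs and 5.75, 6.0 and 6.06 across the HA-IPs. The exact 95% intervals of the HA-IPs, 4.56 to 7.17, 3.98 to 8.74 and 5.45 to 6.73, all hold the values of the Flag-IPs. The ratio of CRYAB to MYH7 thus showed no difference beyond counting error, while the level of both varied more than 100 times. It spanned 1.06 times over the 6 libraries. The ratios of the other 17 sarcomere genes to MYH7 spanned 1.34 to 51.9 times, with a median of 3.6. Among these 20 genes (the 17 sarcomere genes, CRYAB, CKM and MB) CRYAB had the smallest span. MYH7 was also the nearest to CRYAB in pattern of 12116 genes over the same libraries, so nothing is read from this rank. The spans include counting error, which is large for genes with few reads. The widest was that of TCAP, which kept 32.1% or more of its Flag-IP mean in the HA-IPs. Within the Flag-IPs alone the CRYAB ratio spanned 1.03 times. Those of the sarcomere genes spanned 1.01 times (ACTA1) to 2.54 times (TTN) there.

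CKM gave 4.43, 3.66 and 3.61 reads per 100 MYH7 reads across the Flag-IPs and 6.16, 5.18 and 5.52 across the HA-IPs. The HA-IP values were all higher, by an amount that is modest beside the change in level, and the interval of HA-IP replicate 2 (3.32 to 7.73) includes the Flag-IP values while those of replicates 1 (4.92 to 7.62) and 3 (4.94 to 6.16) do not. The span of this ratio was 1.71 times. For each 100 reads of CRYAB there were 73.7, 62.0 and 59.3 of CKM across the Flag-IPs and 107, 86.2 and 91.1 across the HA-IPs.

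MB gave 0.221, 0.36 and 0.368 reads per 100 MYH7 reads in the Flag-IPs and 0.411 (0.150 to 0.896), 1.45 (0.580 to 3.01) and 0.815 (0.604 to 1.08) in the HA-IPs. Its ratio therefore spanned 6.55 times, and in HA-IP replicates 2 and 3 the intervals lay above the Flag-IP values. In relation to CRYAB, MB stood at 3.68, 6.11 and 6.04 reads per 100 in the Flag-IPs and at 7.14, 24.1 and 13.4 in the HA-IPs. With 6 and 7 reads of MB in HA-IP replicates 1 and 2, the counting error of these ratios is large.

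**Figure D4:**
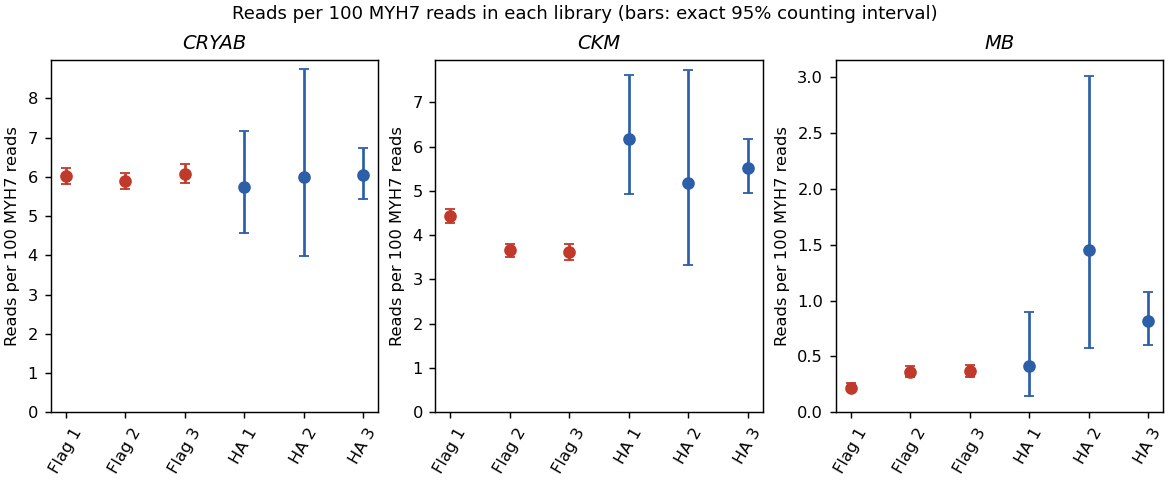
Reads of CRYAB, CKM and MB per 100 reads of MYH7 (y axis, from 0) in each library, with exact 95% counting intervals as bars, where Flag 1 to 3 are the Flag-IPs in red and HA 1 to 3 the HA-IPs in blue. CRYAB stays between 5.75 and 6.08 in all libraries, CKM is 3.61 to 4.43 in the Flag-IPs and 5.18 to 6.16 in the HA-IPs, and MB varies from 0.221 to 1.45.

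The protein-coding genes whose pattern over the 6 libraries was most like each member, by the root mean square difference of centred log2 values among 12116 genes that averaged 50 normalized counts or more, were sarcomere genes for CRYAB and CKM. CRYAB was nearest to MYH7 (0.0289), ACTA1 (0.134) and MYOZ2 (0.216), and CKM to TNNC1 (0.242), MYOZ2 (0.252) and MYH6 (0.253). For MB the nearest genes were POTEJ (0.214), a relative of actin with near-identical copies and so uncertain, CAMK2A (0.451) and the collagen gene COL3A1 (0.454). CRYAB, CKM and MB were chosen as high in these same Flag-IPs, so their nearest genes had to be high there too. For the other genes the distances were small, which is common among genes that vary little. CKB was nearest to CROCC (0.0134), STK10 (0.0179) and MLLT1 (0.0187), ATP2A2 to AKR7A2 (0.00919), PLD2 (0.0133) and UBR3 (0.0167), GJA1 to SLC37A4 (0.0131) and STOX2 (0.0146), and RBM20 to TBX3 (0.0194), RNF31 (0.0226) and REEP4 (0.0296).

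The wider pathways of the members were read from 7 gene lists, also written with earlier results of these data known and counted without the members. Of 165 tested genes in the lists together, 45 were called higher in the Flag-IPs and 19 higher in the HA-IPs in limma, at an adjusted p of at most 0.05. Over all 16834 genes, 12.9% were called, 7.10% higher in the Flag-IPs and 5.79% higher in the HA-IPs. The median log2 difference was -0.06 in the lists and -0.005 over all genes. The count in the HA-IP direction rested on single libraries, with 1 gene without Flag-IP replicate 2, 7 without HA-IP replicate 1, 5 without HA-IP replicate 2 and 5 without HA-IP replicate 3. The count in the Flag-IP direction was 30 to 50 with any 1 library left out. Without a variance trend in limma the counts were 8 and 0, with 4 genes higher in the Flag-IPs in oxygen and fuel, 3 in calcium handling, 1 in gap junctions and the intercalated disc, and 0 in each of the other 4 lists. The deposited table keeps genes with at least 10 reads in 3 or more libraries, so a gene under that in one group can be listed through the other alone. Of the 45 genes, 10 were listed only through the Flag-IPs, as was MB among the 7 genes. With a minimum average of 50 normalized counts the lists gave 34 and 17.

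Of the 10 other genes of creatine and phosphocreatine, 4 were called higher in the Flag-IPs and 0 higher in the HA-IPs in limma (0 in DESeq2, 0 in edgeR and 1 at an unadjusted p under 0.05), with a median difference of -0.11. Besides CKMT2 these included GATM, the first enzyme of creatine synthesis, with 188 ± 39.1 normalized counts in the Flag-IPs and 63.5 ± 15.9 in the HA-IPs (-1.56, SE 0.22, adjusted p = 0.0014 in limma). The count of 4 fell to 2 without Flag-IP replicate 2 and to 2 without HA-IP replicate 1, and was 0 without a variance trend. For all genes the shares called were 7.10% higher in the Flag-IPs and 5.79% higher in the HA-IPs.

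Among 35 genes of oxygen and fuel, 11 were called higher in the Flag-IPs and 3 higher in the HA-IPs, with a median of -0.06. Among all genes these shares were 7.10% and 5.79%. Of the 11, 2 were listed only through the Flag-IPs, ESRRG among them. ESRRG, a nuclear receptor that drives oxidative metabolism in heart and kidney, had 175 ± 59.3 normalized counts on average in the Flag-IPs and 9.27 ± 7.30 in the HA-IPs (-4.27, SE 0.43, adjusted p = 0.00028 in limma). PYGM, the glycogen phosphorylase of muscle, had 209 ± 58.4 and 27.6 ± 7.71 (-2.88, SE 0.26, adjusted p = 0.00014), and FABP3, the fatty acid carrier of heart, 78.9 ± 27.2 and 23.7 ± 5.29 (-1.66, SE 0.31, adjusted p = 0.0063). The genes called higher in the HA-IPs are enzymes of fatty acid oxidation that most cells use. CPT2 differed by 0.30 (SE 0.069, adjusted p = 0.018), ACADVL by 0.29 (SE 0.081, adjusted p = 0.037) and HADHA by 0.20 (SE 0.048, adjusted p = 0.021), and 0 of the 3 were called without Flag-IP replicate 2 or without HA-IP replicate 1, and 1 without HA-IP replicate 2 or HA-IP replicate 3.

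Chaperones were called in both directions. Of 17 chaperone genes tested, 3 were called higher in the Flag-IPs and 6 higher in the HA-IPs, with a median of 0.15. Shares of 7.10% and 5.79% were called in these directions over all genes. The 3 were HSPB6, HSPB8 and HSPE1, the co-chaperonin of mitochondria (-0.57, SE 0.17, adjusted p = 0.048 in limma and 0.15 in DESeq2). Those higher in the HA-IPs included the cytosolic chaperones HSP90AB1 (0.33, SE 0.061, adjusted p = 0.0071) and HSPA8 (0.30, SE 0.048, adjusted p = 0.0033), and BAG3 (0.31, SE 0.066, adjusted p = 0.012), a co-chaperone that works with small heat shock proteins. Only the HSPB6 call and the HSPA8 call of these 6 held with any 1 library left out. The list gave 1 gene higher in the Flag-IPs without Flag-IP replicate 2, HA-IP replicate 1 or HA-IP replicate 2, and 1 and 2 higher in the HA-IPs without Flag-IP replicate 2 and HA-IP replicate 2.

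Of 38 genes of calcium handling, 8 were called higher in the Flag-IPs and 2 higher in the HA-IPs, with a median of -0.08. Over all genes 7.10% were called higher in the Flag-IPs and 5.79% higher in the HA-IPs. Of the 8, 4 were listed only through the Flag-IPs, JPH2 among them, and the count was 5 with a minimum average of 50 normalized counts. The 3 largest differences were in JPH2, which ties the sarcoplasmic reticulum to the surface membrane of heart cells (-4.83, SE 0.43, adjusted p = 0.00014 in limma), SLC8A1, the sodium-calcium exchanger of heart (-4.25, SE 0.35, adjusted p = 9.6e-05), and S100A1, a calcium sensor of muscle (-3.53, SE 0.42, adjusted p = 0.00056). JPH2 measured 229, 324 and 178 normalized counts across the Flag-IPs against 2.82, 8.91 and 14.3 across the HA-IPs. ATP2A2 itself, beside these genes, stayed within 1.16 times over the libraries. The inositol trisphosphate receptors ITPR2 and ITPR1, which are calcium channels, were higher in the HA-IPs by 0.23 (SE 0.068, adjusted p = 0.042) and 0.20 (SE 0.052, adjusted p = 0.027). Both calls were lost without Flag-IP replicate 2 and without any of the HA-IPs, and that of ITPR2 also without Flag-IP replicate 1. PLN and SLN, the genes of phospholamban and sarcolipin, the inhibitors of the pump, were looked for by name and were not among the listed genes.

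Gap junctions and the intercalated disc had 23 tested genes, of which 4 were called higher in the Flag-IPs and 7 higher in the HA-IPs, with a median of 0.13. The shares called over all genes were 7.10% and 5.79% in these directions. Of the 4, 2 were listed only through the Flag-IPs, and the count was 2 with a minimum average of 50 normalized counts. NRAP, which anchors actin at the disc of muscle cells, had 702 ± 158 and 39.7 ± 51.6 normalized counts (-4.92, SE 0.65, adjusted p = 0.0012 in limma). The calls higher in the HA-IPs included adhesion genes that epithelial cells also use. DSC2, a desmosomal cadherin, differed by 0.25 (SE 0.053, adjusted p = 0.012), and CTNNB1, which encodes β-catenin, by 0.24 (SE 0.051, adjusted p = 0.011). The 7 calls in that direction fell to 0 without Flag-IP replicate 2 or HA-IP replicate 3, to 1 without HA-IP replicate 1 and to 2 without HA-IP replicate 2.

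Muscle splicing factors and targets of RBM20 had 12 genes called higher in the Flag-IPs and 1 higher in the HA-IPs of 28 tested, with a median of -0.11. Over all genes the shares called in these directions were 7.10% and 5.79%. Of the 12, 1 was listed only through the Flag-IPs. Besides TTN and RBM24, the RBM20 targets LDB3, a protein of the Z-disc (-3.84, SE 0.54, adjusted p = 0.0015 in limma), and MYOM1, which crosslinks myosin in the M-band (-2.45, SE 0.40, adjusted p = 0.0036), were higher in the Flag-IPs. PTBP1, a splicing repressor of non-muscle cells, was higher in the HA-IPs by 0.16 (SE 0.047, adjusted p = 0.046 in limma and 0.058 in edgeR), a call that was lost without any library but Flag-IP replicate 3. The count of 12 was 7 without HA-IP replicate 1 and 0 without a variance trend. These are gene levels, and splicing was not measured.

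Of 18 genes of the cardiac stress response, 6 were called higher in the Flag-IPs and 0 higher in the HA-IPs in limma (0 in DESeq2, 0 in edgeR and 0 at an unadjusted p under 0.05), with a median of -0.29. The shares over all genes were 7.10% higher in the Flag-IPs and 5.79% higher in the HA-IPs. The other 12 genes of this list were not called. Another 5 genes of it, NPPA and NPPB among them, were not among the listed genes. ACTA1, the skeletal actin that heart muscle also makes, had 43066 ± 14052 and 2050 ± 2788 normalized counts (-5.42, SE 0.77, adjusted p = 0.0016 in limma), MYH7 64100 ± 20533 and 2758 ± 3482 (-5.37, SE 0.69, adjusted p = 0.00097), and ANKRD1, a stretch-responsive nuclear cofactor, 1699 ± 541 and 239 ± 128 (-2.90, SE 0.30, adjusted p = 0.0003). The count was 3 without Flag-IP replicate 2 and 0 without a variance trend. Of the 6 calls, 2 were of genes listed only through the Flag-IPs. ACTA1 and MYH7 are also among the 18 listed sarcomere markers. MYH7 and MYH6 are near-identical in stretches, and actin genes resemble each other, so their levels are uncertain.

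Markers of other cell types were called higher in the Flag-IPs to differing extents, and the sums of the endothelium markers overlapped between the groups. All 18 listed of 20 heart sarcomere markers were called higher in the Flag-IPs, with a median difference of -4.21 and sums of 97278 to 204555 normalized counts in the Flag-IPs and 1455 to 18794 in the HA-IPs. Of the 10 listed of 12 fibroblast markers, 8 were called higher in the Flag-IPs, with sums of 6392 to 8956 and 2733 to 3398, and so were 5 of the 7 listed of 10 endothelium markers, with sums of 966 to 988 and 855 to 1022, and 4 of 8 smooth muscle markers, with sums of 2040 to 2365 and 1651 to 1845. Of fast skeletal muscle 4 of 13 markers were listed and 1 was called, of blood 2 of 8 were listed and 1 was called, and of fat cells 4 of 7 were listed and 1 was called, all higher in the Flag-IPs. Over all genes 7.10% were called in that direction. Several called markers were listed only through the Flag-IPs, where they were high. These were COL1A2, DCN, TCF21 and FAP of fibroblasts, TEK, TIE1 and ERG of endothelium, and CNN1 of smooth muscle. The same held for CASQ1 of fast muscle, FABP4 of fat cells, and TNNT2, MYBPC3, MYL2, MYOZ2 and MYPN of the sarcomere. MYH1, MYH2 and MYLPF, which define fast skeletal muscle, and the globin genes HBA1 and HBB were looked for by name and were not among the listed genes. The part of these markers in the levels of CRYAB, CKM and MB was not tested.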

How the data were processed

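Poly(A) RNA of 3 Flag-IPs and 3 HA-IPs was sequenced in paired reads of 150 bases. Per the submitters' processing notes, reads were trimmed with Trimmomatic 0.36, mapped to GRCh38 with STAR 2.5.2b and counted with featureCounts of Subread 1.5.2, and the strand setting is not given in the sources used here. The authors excluded genes with few reads, and every listed gene has at least 10 reads in 3 or more libraries. They deposited a normalized signal, the reads of a gene divided by a DESeq2 size factor per library, together with log2 fold changes and adjusted p-values from a comparison of the groups, which were not used.

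Reads were recovered from the values of 1 read per library. All values (100%) came out whole within 0.01 of a read, with a largest deviation of 6.65e-05. The values are not raw counts, so limma 3.58.1 (R 4.3.3) tested HA-IPs against Flag-IPs on log2(normalized counts + 1), letting the variance depend on the mean, two-sided, with Benjamini-Hochberg adjustment over 16834 genes and a threshold of 0.05. This scale understates the change of low genes. The libraries held 23174532 to 44134833 reads, and the effect of depth or of more replicates on the calls was not tested. Transcript lengths came from GENCODE 44, which holds 16683 of the identifiers (99.1%), and upstream sequences from RefSeq. Python 3.11.15, scipy 1.17.1, biopython 1.88 and matplotlib 3.10.9 were used, and the fits and the recovery of reads were tested on simulated data.

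The 7 members and all lists were chosen with earlier results of these data known. Named besides the members were, per list, up to 3 called genes in each direction with the largest log2 difference that averaged 50 normalized counts or more, the family members, and the 3 genes nearest in pattern. Marker genes named as not listed, or as listed only through the Flag-IPs, and stress response genes named as not listed fall outside this rule. Some genes that the rule names are not reported here. Alternatives tried were a pseudocount of 0.1 or 10, a minimum average of 50 normalized counts, TMM scaling, the same total per library, quantile normalization, edgeR 4.0.16 and DESeq2 1.42.0 on the recovered reads, no variance trend, a replicate block, leaving out single libraries, reads per kb, families without genes under 10 reads, and ratios after the lowest HA-IP value was subtracted. The numbers of the replicates mark no shared culture in the labels.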

Additional observations from a re-analysis of the deposited data

How the results depend on the processing

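CRYAB, CKM and MB kept their direction under every alternative run. Under quantile normalization the log2 difference of CKB was -0.01 and that of ATP2A2 was -0.01, both turned from a small positive value, and scaling to the same total gave 0.08 for ATP2A2 and 0.08 for GJA1. The median of all genes moved to -0.057 under the same total and 0.044 under quantile normalization. Without a variance trend limma called 182 genes higher in the Flag-IPs and 6 higher in the HA-IPs, and in the 7 lists 8 and 0, against 45 and 19. The same total gave 471 genes higher in the HA-IPs, and 11 in the lists, and quantile normalization gave 7 in the lists. Per kb, ATP2A2 held 97.7% and 97.8% of its family in the Flag-IPs and HA-IPs, and GJA1 61.0% and 63.1%. CKM per 100 MYH7 reads in the HA-IPs was 6.28 after the lowest HA-IP value was subtracted, against 5.62. The cause of these shifts was not tested. Among the counts of single lists under all alternatives, 171 stayed within 1.5 times and 53 did not.

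Leaving out 1 library gave 517 to 1509 genes higher in the Flag-IPs and 103 to 1550 higher in the HA-IPs, where the lowest counts came without Flag-IP replicate 2 and the highest without Flag-IP replicate 3. Without HA-IP replicate 1 or 2 the counts higher in the Flag-IPs were 555 and 632. In the lists the ranges were 30 to 50 and 1 to 26. The log2 differences ranged from -5.88 to -3.95 for CKM, -4.89 to -3.18 for MB, -6.45 to -4.56 for CRYAB, 0.00046 to 0.12 for CKB, 0.10 to 0.17 for ATP2A2, 0.11 to 0.15 for GJA1 and 0.06 to 0.22 for RBM20.

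Same-numbered libraries did not deviate together (r = -0.156, 0.0306 and -0.31 over 13141 genes), and not every library correlated best with its own number. With the replicate number as a block 910 genes were higher in the Flag-IPs and 752 higher in the HA-IPs, and the differences of the members were the same, with -4.81 for CKM. On the recovered reads DESeq2 and edgeR gave -4.53 and -4.64 for CRYAB, -4.05 and -4.15 for CKM and -3.14 and -3.28 for MB. Where a group was reduced to 2 libraries the fit pooled the spread over genes. The level of MB rested on 6 and 7 reads in HA-IP replicates 1 and 2, where counting error is large.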
